A study of Mus musculus with 13 samples.

Results

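The vascular endothelial genes examined here are 33 genes that mark or operate the cells lining blood and lymph vessels. They were taken by gene symbol from the deposited count table, which lists 54532 genes, and each symbol matched 1 row. The tumours were small cell lung cancers of mice on a BL6J background carrying a Cas9 allele behind a lox-stop-lox cassette. In every tumour the Rb1, Trp53 and Rbl2 genes were targeted by guide RNAs, a combination named RPP. The further guide was a control guide in 6 tumours (sgControl) and a guide against Kdm6a, the gene of the histone demethylase KDM6A, in 7 tumours (sgKdm6a). No treatment was given, and the ages of the mice and the cells reached by Cre and the guides are not given in the labels. Tumours were frozen whole and sequenced in bulk, so fewer endothelial cells and less RNA per endothelial cell cannot be told apart.

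Endothelial cells are held together by cadherin and claudin junctions and respond to growth factors of the VEGF and angiopoietin families through receptor tyrosine kinases. Transcription factors of the ETS and SOX families, among them ERG and SOX17, are known to maintain their identity. Lung vessels include general capillary cells, aerocytes (large capillary cells involved in gas exchange), arteries, veins and lymphatics, and growing tumours recruit sprouting vessels.

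Total counts were 16835726 to 22910187 per tumour, so that 3 counts, taken as the detection limit, corresponded to 0.131 to 0.178 CPM (counts scaled to a common library size). Kdm6a mRNA ranged from 51.7 to 112 CPM with the control guide and from 42.7 to 91.3 CPM with the Kdm6a guide, and guide-induced deletions need not lower it. The male transcript Ddx3y was read in 5 of 6 sgControl and in 1 of 7 sgKdm6a tumours. The female transcript Xist was at 407 to 1792 CPM in the tumours without Ddx3y reads and at 0.0615 to 2.66 CPM in those with them. By these transcripts sex ran largely with genotype, so differences between the groups cannot be fully told apart from differences of sex. Replicates 1 and 2, 4 and 5, and 6 and 7 of the sgKdm6a group have the same number in their titles, and the labels do not say whether such tumours came from 1 animal. The 7 sgKdm6a tumours have 4 title numbers, and the p-values take all tumours as independent. If tumours of 1 number shared an animal, the spread would partly be that within animals, and the p-values could be too small. The sgControl tumour of replicate 6 was the highest of the 13 for most endothelial genes and for most marker lists of other tissue cells. Group comparisons are given with and without it.

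Promoter sequences are shown as examples for genes that followed the common pattern of the set (Tie1 and Emcn). They are also shown for genes that departed from it in single tumours (Tek and Clec14a). The RefSeq table of the GRCm38.p6 build held promoters for 16 of the 33 genes, each reaching from 250 bases before to 50 bases after a start site. Capitals mark the letters AGGAAG (an ETS family core) and AACAAT (a SOX family core) on either strand. CCGGAAG, a stronger ETS core, was also searched, and no 2 of these motifs overlapped in the sequences shown. Each is read 5′ to 3′ on the strand of its gene.
Tie1 (chr4:118489800-118490099, minus strand): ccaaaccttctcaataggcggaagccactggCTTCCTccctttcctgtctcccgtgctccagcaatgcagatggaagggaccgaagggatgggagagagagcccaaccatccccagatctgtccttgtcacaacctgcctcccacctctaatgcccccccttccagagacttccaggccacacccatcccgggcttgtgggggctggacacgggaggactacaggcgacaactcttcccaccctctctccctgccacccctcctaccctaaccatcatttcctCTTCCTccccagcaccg
Emcn (chr3:137340828-137341127, plus strand): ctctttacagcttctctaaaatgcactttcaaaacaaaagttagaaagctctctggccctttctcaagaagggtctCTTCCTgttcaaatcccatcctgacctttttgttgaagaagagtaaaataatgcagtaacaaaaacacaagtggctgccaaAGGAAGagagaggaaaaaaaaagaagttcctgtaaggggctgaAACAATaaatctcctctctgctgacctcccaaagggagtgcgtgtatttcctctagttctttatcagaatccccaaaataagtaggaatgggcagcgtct
Tek (chr4:94739039-94739338, plus strand): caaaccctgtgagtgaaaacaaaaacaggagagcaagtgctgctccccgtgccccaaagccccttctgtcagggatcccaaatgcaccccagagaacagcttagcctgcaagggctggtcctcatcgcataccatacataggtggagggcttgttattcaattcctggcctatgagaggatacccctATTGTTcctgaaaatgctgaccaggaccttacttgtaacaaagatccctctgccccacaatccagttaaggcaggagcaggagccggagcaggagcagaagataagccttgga
Clec14a (chr12:58269209-58269508, minus strand): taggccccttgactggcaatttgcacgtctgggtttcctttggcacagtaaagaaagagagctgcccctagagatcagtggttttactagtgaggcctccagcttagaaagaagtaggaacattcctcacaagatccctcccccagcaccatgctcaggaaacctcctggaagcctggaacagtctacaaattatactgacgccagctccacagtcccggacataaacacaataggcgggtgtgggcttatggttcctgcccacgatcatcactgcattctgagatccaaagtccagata
These genes have 21 promoters in the table. AGGAAG occurred in 10 of the 21, which belong to 9 genes, and in 35.4% of all 32851 promoters of that length. AACAAT occurred in 4 of the 21, of 4 genes, against 10.7% of all promoters. CCGGAAG occurred in 0 of the 21 and in 8.86% of all promoters. Tie1 and Emcn each hold AGGAAG at 2 positions, Emcn and Tek each hold AACAAT at 1, and the Clec14a window holds none of these letters. The 4 examples do not stand for the rest. AGGAAG also occurs in promoters of Cd34, Erg and Apln, which departed from the common pattern. The Cldn5 window, of a gene that followed it, holds none of the letters. A link between these letters and the levels was not tested.

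Most genes of the set had lower levels in sgKdm6a than in sgControl tumours, none past the adjusted threshold, and most of the difference rested on sgControl replicate 6. All 33 genes passed the filter on low counts. Across the 13 tumours 31 of the 33 had a negative log2 fold change, against 50.3% of all 16575 genes tested, and their median was -1.89, against -0.0017 for all genes. At an unadjusted p under 0.05 in edgeR's quasi-likelihood test 21 of the 33 were lower and 0 higher, where 6.97% of all genes were lower and 3.18% higher. At an adjusted p under 0.05 edgeR called 0 of the 33 and 0% of all genes, and DESeq2, which gave a p to 17 of the 33, also called 0 of them, while it called 49 other genes lower and 34 higher. Without sgControl replicate 6, 26 of the 33 had a negative log2 fold change, with 48.1% of all genes negative. The median was then -0.38 and 7 of the 33 were lower at an unadjusted p under 0.05, against 2.79% of all genes, and 0 were higher, against 2.75%. Again 0 passed the adjustment. The tumour of sgControl replicate 6 had the highest level of the 13 for 30 of the 33 genes, and for 22% of all genes tested.

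**Figure D1:**
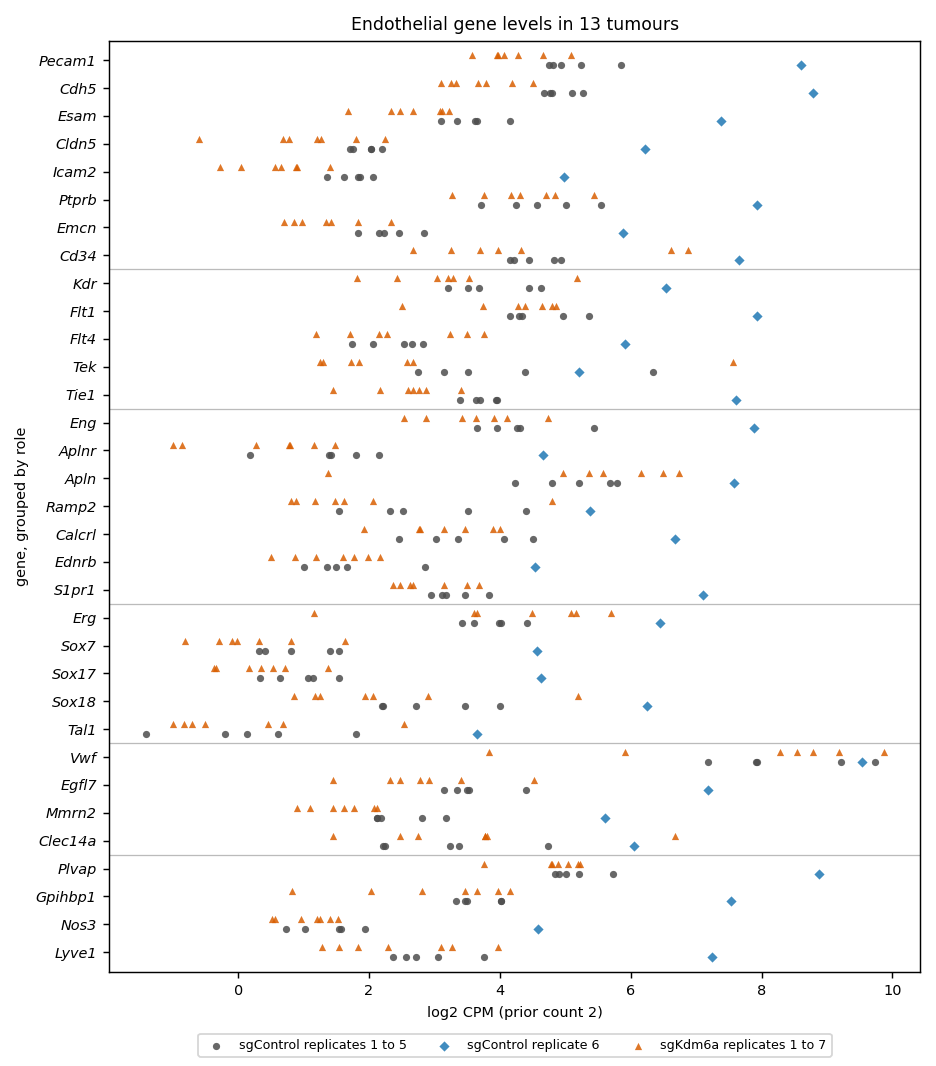
Level of each of the 33 endothelial genes in each of 13 tumours, as log2 CPM with a prior count of 2, with genes grouped by role. Each mark is 1 tumour. The diamond of sgControl replicate 6 is the highest mark for 30 genes, and Tek, Vwf and Clec14a are highest in an sgKdm6a tumour.

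Most marker lists of other tissue cells were also highest in that tumour, and others were not. Summed over the set, the endothelial genes stood at 5053 CPM in sgControl replicate 6, at 558 to 1268 CPM in the other 5 sgControl tumours and at 332 to 1401 CPM in sgKdm6a tumours. Vwf alone gave 848 of the 1268 CPM in sgControl replicate 5 and 933 of the 1401 CPM in sgKdm6a replicate 6. In the latter tumour the mean over the 33 genes was 2.88 log2 CPM, below the 2.95 to 3.65 of sgControl replicates 1 to 5. The fold of sgControl replicate 6 over the median of the other sgControl tumours had a median of 11.7 over the 33 genes, from 3.04 for Vwf to 23.3 for Lyve1, and of 0.937 over all genes tested. Summed markers of macrophages (12 genes) were at 17266 CPM in replicate 6 against 523 to 1634 CPM in the other sgControl and 261 to 711 CPM in sgKdm6a tumours. Alveolar type 2 markers (10 genes) were at 11909 CPM against 307 to 1976 and 81.1 to 489 CPM. Fibroblast markers (10 genes) were at 6615 CPM against 261 to 762 and 166 to 1019 CPM, and platelet markers (6 genes) at 593 CPM against 4.72 to 14.6 and 3.59 to 11.2 CPM. Alveolar type 1, pericyte and smooth muscle, neutrophil, T and NK cell and mesothelial lists were also highest in replicate 6. B and plasma cell markers were highest there only narrowly, at 31.5 CPM against up to 30.1 CPM in sgKdm6a tumours. Conversely, neuroendocrine markers (10 genes) were at 2962 CPM against 4009 to 7248 and 3302 to 15907 CPM, and proliferation genes (6 genes) at 1007 CPM against 2819 to 3504 and 2229 to 3470 CPM. Airway markers (8 genes) were at 84.6 CPM in replicate 6, below the 87.2 to 966 CPM of the other sgControl tumours and within the 76.6 to 666 CPM of the sgKdm6a group. Red blood cell genes (6 genes) were at 359 CPM, within the 110 to 529 CPM of the other sgControl tumours, and heart and skeletal muscle genes (7 genes) at 9.97 CPM, within the 0.558 to 84.8 CPM of the sgKdm6a group. Of the marker genes of other cells, 0 were without counts in all tumours. The part of other cells in the endothelial difference was not tested. After replicate 6 was set aside, alveolar type 2 markers still had 5 of 10 genes lower at an unadjusted p under 0.05 and a median log2 fold change of -1.97. Alveolar type 1 markers had 2 of 10 and -0.84, macrophage markers 1 of 12 and -0.28, and fibroblast markers 1 of 10 and -0.17. Medians were -0.61 for B and plasma cell, -0.55 for T and NK cell, -0.46 for platelet and -0.32 for airway lists. They were 0.036 for pericyte and smooth muscle, 0.34 for mesothelial, 0.49 for red blood cell, 0.86 for neutrophil and 1.52 for heart and skeletal muscle lists. Of all genes tested, 2.79% were then lower.

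**Figure D2:**
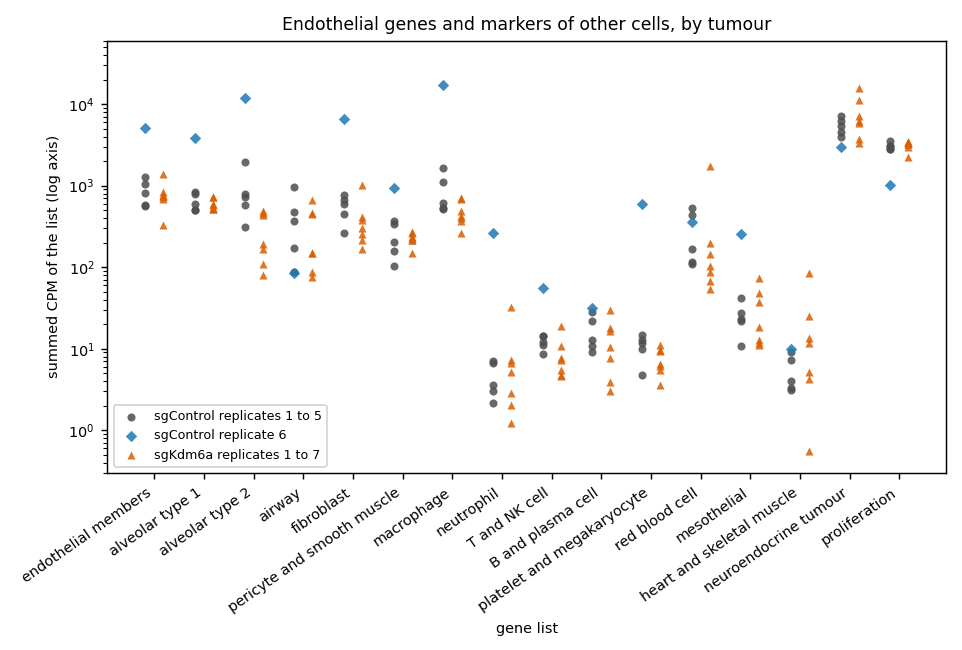
Summed CPM, on a log axis, of the 33 endothelial genes and of marker lists for other cells, with 1 mark per tumour. Vwf makes up much of the endothelial sum in several tumours. The sgControl tumour of replicate 6 is the highest for endothelial, alveolar, fibroblast, macrophage, platelet and several other lists. It is the lowest for neuroendocrine and proliferation genes.

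Junction and surface adhesion genes made up 5 of the 7 genes that were lower without sgControl replicate 6. Of 8 such genes, 7 were lower at an unadjusted p under 0.05 with all tumours and 5 without sgControl replicate 6, with median log2 fold changes of -2.40 and -0.88. The background for this and the later counts by role is 6.97% of all genes lower with all tumours, and 2.79% without that tumour. Cdh5 (ENSMUSG00000031871, chromosome 8, 104101625 to 104144511, mm10) encodes VE-cadherin, the adherens junction cadherin of endothelium. It was at 38.3, 34.2, 27.7, 27.1 and 25.4 CPM in sgControl replicates 1 to 5, at 442 CPM in replicate 6 and at 8.43 to 22.7 CPM (median 12.5) in sgKdm6a tumours. All 7 sgKdm6a tumours lay below all 6 sgControl tumours, which held for no other gene of the set and for 0.163% of all genes tested (0.279% without replicate 6). In log2 fold change Cdh5 differed by -2.87 (SE 0.72), with an edgeR adjusted p = 0.419. Without replicate 6 the difference was -1.17 (SE 0.26), with an edgeR adjusted p = 0.551. No gene of the whole table had a smaller adjusted p in either fit. Genes of different unadjusted p can share an adjusted p, so neither value ranks Cdh5 first. With all tumours, Pecam1, Tie1 and Plvap, among others, had the same adjusted p as Cdh5. On the log2 CPM scale the Cdh5 mean of sgControl replicates 1 to 5 was 4.92 ± 0.25 (SD, n = 5), and that of the sgKdm6a group was 3.69 ± 0.52 (SD, n = 7).

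Icam2, which encodes an adhesion molecule for leukocytes, was at 4.05, 2.96, 2.46, 3.55 and 3.44 CPM in sgControl replicates 1 to 5 and 31.5 CPM in replicate 6. In sgKdm6a tumours it was at 0.724 to 2.54 CPM (median 1.47), with 6 of 7 tumours below every sgControl tumour. The Icam2 log2 fold change was -2.41 (SE 0.65), or -1.13 without replicate 6 (SE 0.33, edgeR adjusted p = 0.805). Esam, an immunoglobulin-family junction protein gene, was at 17.6, 12.2, 10.01, 12.5 and 8.49 CPM in the first 5 sgControl tumours, at 167 CPM in replicate 6 and at 3.10 to 9.20 CPM (median 6.24) in sgKdm6a tumours. Its log2 fold change was -2.53 (SE 0.71) and, without replicate 6, -0.89 (SE 0.30). The ranges of Esam overlapped, with 5 sgKdm6a tumours below every sgControl tumour.

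Pecam1, whose product CD31 is also found on platelets and leukocytes, was at 57.7, 30.4, 26.9, 37.7 and 28.0 CPM in sgControl replicates 1 to 5 and at 388 CPM in replicate 6. In sgKdm6a tumours Pecam1 ranged from 11.7 to 34.0 CPM (median 16.6), and only replicate 1 reached the sgControl range. The Pecam1 log2 fold change was -2.26 (SE 0.64), or -0.87 without sgControl replicate 6 (SE 0.28). Emcn, the gene of the surface mucin endomucin of veins and capillaries, was at 7.07, 5.41, 4.32, 4.59 and 3.44 CPM, then 59.1 CPM in replicate 6, against 1.52 to 4.93 CPM (median 2.44) with the Kdm6a guide. Its log2 fold change was -2.40 (SE 0.70) and -0.91 (SE 0.35) with and without that tumour. Cldn5, the tight junction claudin of endothelium, was at 3.99, 3.27, 4.48, 3.98 and 3.18 CPM and at 74.7 CPM in replicate 6, with 0.558 to 4.64 CPM (median 2.19) in sgKdm6a tumours. Its log2 fold change of -2.75 (SE 0.86) became -0.71 (SE 0.42, edgeR unadjusted p = 0.117) without replicate 6.

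The remaining adhesion genes differed from this pattern. For Ptprb, the vascular phosphatase VE-PTP, the log2 fold change was -1.48 (SE 0.64) with replicate 6 and -0.25 (SE 0.39) without it. Cd34, a sialomucin of endothelium and blood progenitors, was at 28.3, 30.5, 17.6, 21.7 and 18.4 CPM in sgControl replicates 1 to 5 and 202 CPM in replicate 6. In sgKdm6a tumours it was at 118 CPM in replicate 3 and 98.4 CPM in replicate 7, and at 6.26 to 19.98 CPM in the other 5. Replicate 6 of the sgKdm6a group, which shares a title number with replicate 7, had 15.6 CPM of Cd34. The Cd34 log2 fold change was -0.41 (SE 0.82), and it turned to 0.78 (SE 0.71) without sgControl replicate 6.

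**Figure D3:**
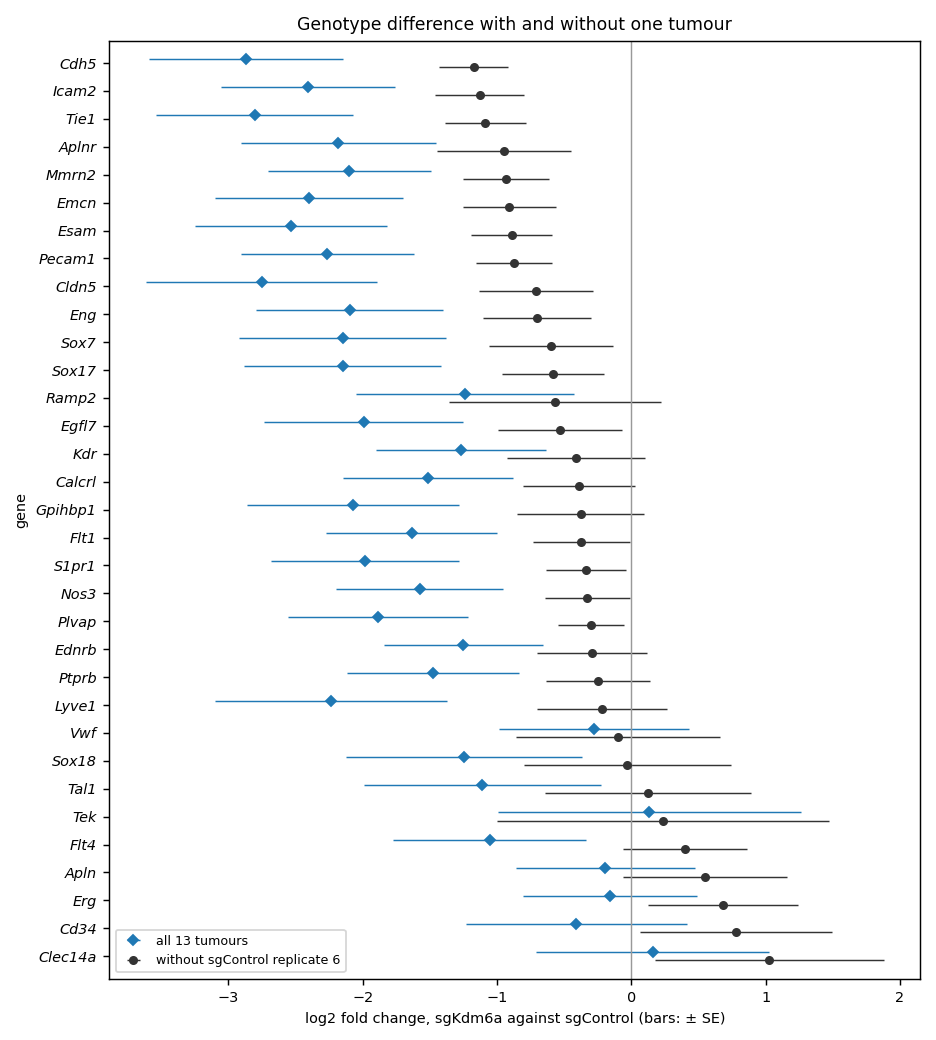
Log2 fold change of sgKdm6a against sgControl tumours for the 33 genes from edgeR, with all 13 tumours (diamonds) and without sgControl replicate 6 (circles); bars are ± SE. Without that tumour Cdh5, Icam2 and Tie1 are at -1.17, -1.13 and -1.09, and Clec14a is at 1.03.

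Receptors for angiopoietin and VEGF did not move as 1 group. Of these 5 genes, 2 were lower at an unadjusted p under 0.05 with all tumours and 1 without sgControl replicate 6. Tie1, an orphan receptor that modulates angiopoietin signalling, was at 15.5, 15.2, 10.3, 12.4 and 12.9 CPM in sgControl replicates 1 to 5 and at 195 CPM in replicate 6. In sgKdm6a tumours Tie1 was at 2.64 to 10.5 CPM (median 6.29), and 6 of the 7 lay below every sgControl tumour. Its log2 fold change was -2.80 (SE 0.74), and -1.09 without replicate 6 (SE 0.30, edgeR adjusted p = 0.777).

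Tek, the gene of the angiopoietin receptor TIE2, had its highest levels in single tumours of either group. It was at 6.62, 20.8, 11.3, 8.74, 80.8 and 36.9 CPM in sgControl replicates 1 to 6. In sgKdm6a tumours Tek was at 188 CPM in replicate 1 and at 2.28 to 6.26 CPM in the other 6, each of which lay below every sgControl tumour. Replicate 2, which has the title number of replicate 1, had 3.18 CPM. The Tek log2 fold change was 0.14 (SE 1.13) with all tumours, 0.24 (SE 1.23) without sgControl replicate 6 and -2.80 without sgKdm6a replicate 1. In the tumour with 188 CPM of Tek, Tie1 was at 10.5 CPM and Cdh5 at 22.7 CPM, both the highest of the sgKdm6a group but below every sgControl tumour for Cdh5.

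The VEGF receptors Kdr and Flt1 (VEGFR2 and the decoy receptor VEGFR1) differed by -1.27 (SE 0.63) and -1.63 (SE 0.64) in log2 fold change. Without sgControl replicate 6 these were -0.41 (SE 0.52) and -0.37 (SE 0.36), and neither was lower at an unadjusted p under 0.05. Kdr was at 9.13 to 24.5 CPM in sgControl replicates 1 to 5, at 93.2 CPM in replicate 6 and at 3.41 to 36.3 CPM in sgKdm6a tumours. Flt4, the VEGF-C receptor VEGFR3 of lymphatic and sprouting endothelium, stood at a log2 fold change of -1.06 (SE 0.72), which turned to 0.40 (SE 0.46) without replicate 6. At 9.32, 11.1 and 13.5 CPM, sgKdm6a replicates 2, 1 and 7 lay above sgControl replicates 1 to 5 for Flt4.

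Among 7 genes of other signalling systems, 4 were lower at an unadjusted p under 0.05 with all tumours and 0 without sgControl replicate 6. Eng, the TGF-beta co-receptor endoglin, differed by -2.10 (SE 0.69) on the log2 scale with that tumour and by -0.70 (SE 0.40) without it. Aplnr, the apelin receptor of general capillary and venous cells, had -2.18 (SE 0.73) and -0.95 (SE 0.50). For S1pr1, the sphingosine 1-phosphate receptor that stabilises junctions, the values were -1.98 (SE 0.70) and -0.34 (SE 0.30). Calcrl and Ramp2 form the adrenomedullin receptor, and their log2 fold changes were -1.51 (SE 0.63) and -1.24 (SE 0.81), or -0.39 (SE 0.42) and -0.57 (SE 0.79) without replicate 6. Ednrb, the endothelin receptor that marks aerocytes, had -1.25 (SE 0.59) and -0.29 (SE 0.41).

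Ramp2 and its partner Calcrl were both highest in sgControl replicate 6 and stood far apart in 1 sgKdm6a tumour. Ramp2 was at 11.3, 20.9, 2.79, 5.62, 4.90 and 41.5 CPM in sgControl replicates 1 to 6, and at 27.7 CPM in sgKdm6a replicate 3 against 1.65 to 4.05 CPM in the other 6 sgKdm6a tumours. In sgKdm6a replicate 3 Calcrl was at 3.67 CPM, the lowest value of the 13 tumours. In the annotation 33.4% of the exonic bases of Ramp2 also belong to a Vps25 transcript on the same strand, and Vps25 had 3 to 16 counts in any tumour.

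Apln, the X-linked gene of the ligand apelin, which sprouting tip cells and aerocytes make, was at 51.4, 18.6, 37.0, 55.5, 27.6 and 192 CPM in sgControl replicates 1 to 6. In sgKdm6a tumours Apln was at 2.48 CPM in replicate 3 and at 31.1 to 106 CPM in the other 6. Its log2 fold change was -0.19 (SE 0.67), and 0.55 (SE 0.61) without sgControl replicate 6. Ddx3y reads were present in 5 of 6 sgControl tumours and 1 of 7 sgKdm6a tumours, and the sgKdm6a tumour with them is replicate 3, which had the 2.48 CPM of Apln. With a term for Y-linked transcripts the Apln log2 fold change was -2.17 (SE 1.55), and -1.59 (SE 0.97) without sgControl replicate 6. Without replicate 6 and without that term, its receptor gene Aplnr was at -0.95 (SE 0.50), and the difference between ligand and receptor was not tested.

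Among transcription factors the median log2 fold change was -1.25, and 2 of 5 were lower at an unadjusted p under 0.05. Without sgControl replicate 6 the median was -0.030, and 0 of 5 were lower. Sox17, an arterial factor, and Sox7, both of the SOXF family, had -2.15 (SE 0.73) and -2.15 (SE 0.77), or -0.58 (SE 0.38) and -0.60 (SE 0.46) without it. Sox18, the third SOXF factor, was at 10.9, 15.9, 4.48, 6.49, 4.53 and 75.7 CPM in sgControl replicates 1 to 6. It reached 36.7 CPM in sgKdm6a replicate 3 and was at 1.71 to 7.38 CPM in the other 6 sgKdm6a tumours. The Sox18 log2 fold change was -1.25 (SE 0.88) and, without replicate 6, -0.030 (SE 0.77).

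Erg, an ETS factor of endothelial identity, was at 16.1, 15.7, 12.03, 21.2, 10.6 and 86.9 CPM in sgControl replicates 1 to 6. In sgKdm6a tumours it was at 2.12 CPM in replicate 3 and at 12.02 to 51.6 CPM in the other 6, of which 4 were above sgControl replicates 1 to 5. Replicates 4 and 5, which share a title number, had 51.6 and 12.5 CPM of Erg. The Erg log2 fold change was -0.16 (SE 0.65) with all tumours and 0.68 (SE 0.56) without sgControl replicate 6. Tal1, a factor of blood and endothelial progenitors, was the lowest gene of the set per length, with a median over tumours of 0.206 FPKM, and its log2 fold change was -1.11 (SE 0.88), or 0.12 (SE 0.77) without replicate 6.

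The group of 4 secreted and matrix genes also holds Clec14a, the gene of a cell-surface lectin. Of the 4, 2 were lower at an unadjusted p under 0.05 with all tumours and 1 without sgControl replicate 6. Mmrn2, the gene of a matrix protein of vessels that binds CLEC14A, was at 8.90, 6.90, 4.27, 4.24 and 4.43 CPM in sgControl replicates 1 to 5, at 48.7 CPM in replicate 6 and at 1.77 to 4.25 CPM (median 2.95) in sgKdm6a tumours. The Mmrn2 log2 fold change was -2.10 (SE 0.60), and -0.93 (SE 0.32, edgeR adjusted p = 0.859) without replicate 6. Egfl7, a secreted vascular organiser that hosts miR-126, had -1.99 (SE 0.74) with that tumour and -0.53 (SE 0.46) without it.

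Clec14a, a C-type lectin of tumour vessels, was at 9.30, 4.55, 4.65, 26.5, 10.3 and 66.0 CPM in sgControl replicates 1 to 6. In sgKdm6a tumours it was at 102 CPM in replicate 6 and at 2.64 to 13.8 CPM in the other 6. Replicate 7, of the same title number, had 13.8 CPM. The Clec14a log2 fold change was 0.16 (SE 0.87) with all tumours, 1.03 (SE 0.85) without sgControl replicate 6 and -1.12 without sgKdm6a replicate 6. Mmrn2 and Cdh5 were at 2.64 and 9.45 CPM in the tumour with 102 CPM of Clec14a.

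Vwf, the clotting factor stored in granules of endothelium and platelets, was the most abundant gene of the set per length, with a median of 21.7 FPKM over the 13 tumours. It was at 245, 145, 241, 595, 848 and 745 CPM in sgControl replicates 1 to 6, and at 60.1, 372, 14.2, 441, 584, 933 and 311 CPM in sgKdm6a replicates 1 to 7. The groups overlapped, with sgKdm6a replicates 1 and 3 below every sgControl tumour and replicate 6 above all of them. The Vwf log2 fold change was -0.28 (SE 0.71), or -0.097 (SE 0.76) without sgControl replicate 6. With 933 CPM of Vwf, sgKdm6a replicate 6 was above sgControl replicate 6, in which Cdh5 was at 442 CPM against 9.45 CPM. Plvap and Apln followed Vwf per length, with median levels of 15.1 and 14.5 FPKM that did not differ beyond the spread of the tumours, and the next gene, Cdh5, was at 5.14 FPKM.

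Genes of specialised vessel beds were lower at an unadjusted p under 0.05 in 4 of 4 cases with all tumours and in 0 of 4 without sgControl replicate 6. Plvap, the diaphragm protein of capillary and tumour vessels, differed by -1.89 (SE 0.67) on the log2 scale, and by -0.30 (SE 0.24) without it. Gpihbp1, the capillary anchor of lipoprotein lipase, had -2.07 (SE 0.79) and -0.38 (SE 0.47), and Nos3, endothelial nitric oxide synthase, -1.58 (SE 0.62) and -0.33 (SE 0.32). Lyve1, the hyaluronan receptor of lymphatics and of some macrophages, had -2.24 (SE 0.86) and -0.22 (SE 0.48). In Nos3, 25.2% of exonic bases lie opposite the gene Gm15587 and 7.12% opposite Atg9b, and libraries did not keep the strand.

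The genes were then set against the shared endothelial level of the same tumour, the mean log2 CPM of Cdh5, Tie1, Esam and Clec14a. Over the 13 tumours the SD of this relative level was smallest for Esam (0.25), Sox17 (0.31), Eng (0.36), Icam2 (0.38), Pecam1 (0.40) and Tie1 (0.40). It was largest for Tek (1.85), Vwf (1.61), Ramp2 (1.49), Cd34 (1.47), Sox18 (1.39), Apln (1.15), Erg (1.14) and Clec14a (1.12). Esam, Tie1 and Clec14a are part of this reference, which by itself affects their SDs. Because Clec14a itself varied, a reference of Cdh5, Tie1 and Esam was added after the data were seen, and the same 8 genes had SDs of 1.30 to 1.82 with it. Among genes outside both references the smallest SDs were then 0.27 for Pecam1, 0.31 for Icam2, 0.32 for Emcn and 0.39 for Sox17. Without sgControl replicate 6 the 8 genes had SDs of 1.10 to 1.84 with the 4-gene reference, and Tal1, at 1.14, came above Clec14a, Erg and Apln. In single tumours, relative to the 4-gene reference, Tek was at 3.85 in sgKdm6a replicate 1 against -2.65 to 0.06 in the rest of that group. It was also high in sgControl replicate 5, at 2.62. Cd34, Sox18 and Ramp2 were at 4.90, 3.22 and 2.82 in sgKdm6a replicate 3, in which the reference itself was at 1.98 log2 CPM, the lowest of the 13. These relative values are on a log2 scale and carry no test, since the reference genes belong to the set.

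**Figure D4:**
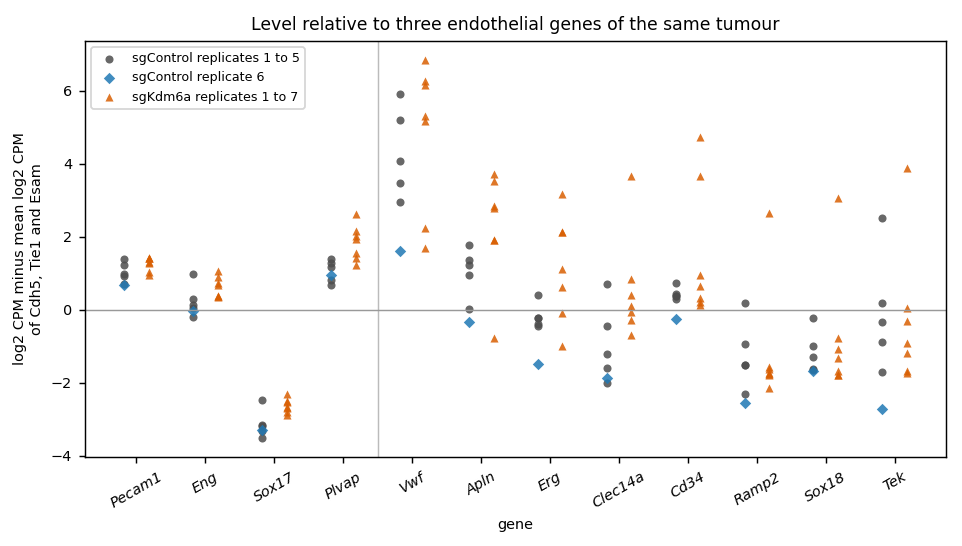
Level of 12 genes relative to the mean log2 CPM of Cdh5, Tie1 and Esam in the same tumour; each mark is 1 tumour. The 4 genes left of the line span less than those right of it, and Tek, Cd34, Ramp2, Sox18 and Clec14a each have 1 or 2 sgKdm6a tumours far above the rest of that group. For Tek, sgControl replicate 5 is also high, at 2.51.

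The order of tumours was also uneven within each genotype. With sgControl replicate 6 set aside, sgControl replicate 1 held the highest value for 11 of the 33 genes and sgKdm6a replicate 1 for 7. The lowest value of all 13 tumours fell in sgKdm6a replicate 3 for 18 genes and in sgKdm6a replicate 4 for 9. The mean over the 33 genes was 2.95 to 3.65 log2 CPM in sgControl replicates 1 to 5, and in the sgKdm6a group it ran from 2.11 in replicate 3 to 3.53 in replicate 1. Sums of length-scaled levels were 97.5 to 151 FPKM in sgControl replicates 1 to 5, 1145 FPKM in replicate 6 and 80.4 to 167 FPKM in sgKdm6a tumours.

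The title numbers form a lower and a higher series, which the labels do not explain. Titles of the 3 sgControl tumours of the lower series also carry a prefix that no other title has. Within that series genotype and prefix therefore cannot be told apart. Within the lower series, of 3 sgControl and 2 sgKdm6a tumours, 0 of the 33 genes were lower at an unadjusted p under 0.05, against 2.22% of all genes, and the median log2 fold change was -0.086. Within the higher series without sgControl replicate 6, of 2 sgControl and 5 sgKdm6a tumours, 7 were lower, against 1.73% of all genes, and the median was -0.79. The difference between series was tested as an interaction in edgeR, and 0 of the 33 passed the adjustment (smallest adjusted p = 0.712, or 0.999 without replicate 6). At an unadjusted p under 0.05 it concerned 19 of the 33 genes with all tumours and 4 without replicate 6, where 6.91% and 3.49% of all genes did. With a term for Y-linked transcripts and all tumours, 0 of the 33 were lower at an unadjusted p under 0.05, against 2.52% of all genes. With that term and without replicate 6, 10 were lower, against 3.75%. Because Y-linked transcripts ran largely with genotype, these fits cannot fully separate sex from genotype.

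Other vascular genes were followed in lists of genes outside the set. At an unadjusted p under 0.05, 6.97% of all genes tested were lower and 3.18% higher with all tumours. Without sgControl replicate 6 these shares were 2.79% and 2.75%. They are the background for each list count below, and counts of 1 or 2 genes are not read as a result. Some genes, such as Robo4, Cd93 and Angpt2, are in more than 1 list, so the list counts are not independent. Of 17 further pan-endothelial genes tested, 10 were lower at an unadjusted p under 0.05 and 0 higher, with a median log2 fold change of -1.39, and 5 were lower without sgControl replicate 6, with a median of -0.64. Robo4, a vascular guidance receptor, had -2.81 (SE 0.71), or -1.46 without replicate 6 (edgeR unadjusted p = 0.00436), and Cd93, a C-type lectin related to Clec14a, -2.70 (SE 0.71), or -1.16. Among 17 other vascular receptors and Notch vessel genes 8 were lower with all tumours and 4 without that tumour. Ackr3, a scavenger receptor for CXCL12 and adrenomedullin, had -2.15 (SE 0.64), or -1.02. Of 16 further endothelial transcription factors tested 2 were lower and 1 higher, and 1 and 2 without replicate 6. Mecom, an arterial fate factor, had -1.96 (SE 0.53), or -1.16. Prox1, the lymphatic factor, had 0.70 (SE 0.26), or 0.55. Prox1 was at 309 to 470 CPM in sgControl replicates 1 to 5 and at 147 CPM in replicate 6. Lyve1 ran in the opposite order, at 5.08 to 13.4 CPM in the former and 151 CPM in the latter. Summed neuroendocrine markers were also lower in replicate 6, at 2962 CPM against 4009 to 7248 CPM. Which cells carried the Prox1 transcripts was not tested.

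For angiogenic ligands the median log2 fold change was -0.20, and 3 of 12 were lower at an unadjusted p under 0.05, and 1 without sgControl replicate 6. Angpt2, the TIE2 ligand made by activated endothelium, had -2.57 (SE 0.78), or -1.19 without that tumour (edgeR unadjusted p = 0.0451), and Edn1, the gene of endothelin 1, -2.43 (SE 1.0), or -0.66. Tip and tumour vessel genes outside the set had 4 of 9 lower with and without replicate 6, among them Angpt2 and Col4a1 (-2.10, SE 0.63, or -0.75), a basement membrane collagen gene. For the vessel beds, genes outside the set lower at an unadjusted p under 0.05 numbered 3 of 6 for general capillaries, 3 of 6 for aerocytes, 3 of 9 for arteries, 3 of 9 for veins and 1 of 7 for lymphatics, and 2 lymphatic genes were higher. Without sgControl replicate 6 these were 1 of 6, 0 of 6, 1 of 8, 0 of 9 and 0 of 7, while 2 lymphatic genes, 1 venous gene and 1 tip and tumour vessel gene were higher. The aerocyte marker Car4, a carbonic anhydrase gene, reached 32.9 CPM in sgControl replicate 6, with 0 to 1.64 CPM in the other 12 tumours. Car4 does not stand for its list. Summed, the 7 aerocyte genes outside the set were at 251 CPM in sgControl replicate 6, within the 44.5 to 253 CPM of the other sgControl tumours. In sgKdm6a tumours that sum ran from 40.4 CPM to 1571 CPM, the latter in replicate 3. The lymphatic chemokine gene Ccl21a had 0 counts in all 13 tumours.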

How the data were processed

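RNA sequencing of 13 mouse tumours (6 sgControl, 7 sgKdm6a) was analysed. Per the labels' protocols, libraries did not keep the strand and were read in pairs. STAR, DESeq2 and mm10 are named, without versions, in the submitters' processing notes, and the counting program is not given in the sources used here. The authors deposited raw gene counts and FPKM. Groups follow the genotype label, and replicate numbers follow the accession order and pair nothing. The positions of all 33 genes equal those of GENCODE M21.

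Counts were tested over all genes in R 4.3.3 with edgeR 4.0.16: filterByExpr, TMM, robust dispersions, quasi-likelihood F test, Benjamini-Hochberg adjustment and a threshold of 0.05. The SE was computed as the absolute log2 fold change over the root of F. TMM-scaled library sizes entered the CPM, with a prior count of 2 on the log2 scale. Alternatives used DESeq2 1.42.0 and limma 3.58.1. Scripts were tested on simulated data. Detection limits cover counting error only.

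The members and lists were chosen with earlier results of these data known. Per-tumour values were planned for the 8 genes of smallest p, for Cdh5, Tie1, Esam and Clec14a, and for genes with a higher mean in sgKdm6a. Cd34, Ramp2, Apln, Sox18, Erg and Vwf were added after their values were seen. Outside the set, genes of smallest p of each list are named, with at most 2 per list, and Prox1, Car4 and Ccl21a also for their levels.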

Additional observations from a re-analysis of the deposited data

Results flagged for a closer look

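In each genotype the highest and lowest tumour of every gene was compared with its nearest neighbour on the log2 CPM scale, in 66 groups in all, and 24 values of 23 genes stood apart by Dixon's 95% limit. Chance flags about 1 in 20 groups, and the genes are not independent, since they share tumours. In sgControl replicate 6, 20 genes were high. Adhesion genes there were Pecam1 at 8.60, Cdh5 at 8.79, Esam at 7.39, Cldn5 at 6.22, Icam2 at 4.98, Emcn at 5.89 and Cd34 at 7.66 log2 CPM. Receptors were Flt1 at 7.93, Flt4 at 5.91, Tie1 at 7.61 and S1pr1 at 7.11 log2 CPM. Transcription factors were Erg at 6.44, Sox7 at 4.57 and Sox17 at 4.62 log2 CPM. Secreted and bed-specific genes were Egfl7 at 7.17, Mmrn2 at 5.61, Plvap at 8.87, Gpihbp1 at 7.54, Nos3 at 4.58 and Lyve1 at 7.24 log2 CPM.

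In the sgKdm6a group 4 values stood apart. Tek was high in replicate 1, at 7.56 log2 CPM with the next tumour at 2.67. Replicate 3 was high for Ramp2, at 4.80 against 2.06 log2 CPM, and low for Apln, at 1.37 against 4.96 log2 CPM. Plvap was low in replicate 4, at 3.75 against 4.78 log2 CPM.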

How the results depend on the processing

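Of 29 alternatives, none gave a member of the set an adjusted p under 0.05. The count of 21 genes lower at an unadjusted p under 0.05 and the median of -1.89 moved as follows. DESeq2 found 7 lower (3.8% of all genes), and gave no p to 16. Limma-voom with quality weights found 12 (5.07% of all genes, median -0.67), limma-trend on log2(FPKM + 1) 6 (3.16%, -0.79) and on log2(FPKM + 0.1) 9 (3.63%). Counts summed by title number gave 12 (3.36%), and 8 without sgControl replicate 6 (2.22%, -0.53). The lower series alone gave 0 (2.22%, -0.086), and the higher series had a median of -2.92, or 7 genes (1.73%) and -0.79 without sgControl replicate 6. A Y-linked term gave 0 (2.52%), and 10 without that tumour (3.75%). Leaving out single tumours gave 7 to 24 genes and medians of -2.09 to -0.38, both ends nearest to 0 being those without sgControl replicate 6. The share of all genes lower moved too, from 2.79% without sgControl replicate 6 to 7.89% without sgControl replicate 4. No paired analysis was possible because the groups share no title number.

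Directions turned in 67 single-gene values. The log2 fold changes that turned were as follows. Lower series: Ptprb 0.64, Kdr 0.29, Flt4 0.83, Aplnr 0.079, Apln 0.74, Calcrl 0.96, S1pr1 0.075, Erg 0.24, Sox7 0.027, Sox17 0.20, Tal1 1.23, Vwf 0.048, Egfl7 0.27 and Lyve1 1.05. Higher series: Tek -3.38 and Clec14a -0.42, and without sgControl replicate 6 Cd34 1.30, Flt4 0.31, Tek -3.47, Apln 0.38, Ramp2 0.44, Ednrb 0.50, Erg 0.76, Sox18 0.75 and Nos3 0.31. Quality weights: Cd34 0.27, Flt4 0.51, Tek -1.72, Apln 0.63 and Erg 0.73. Summed by title number: Tek -0.0067 and Clec14a -0.10, and without sgControl replicate 6 Cd34 1.10, Flt4 0.26, Apln 0.34, Erg 0.47, Sox18 0.48 and Tal1 0.13. Y-linked term: Cd34 0.53, Tek -1.47 and Clec14a -1.35, and without that tumour Cd34 1.20, Tek -1.37, Ednrb 0.064, Sox18 0.39, Tal1 0.061, Clec14a -0.57 and Nos3 0.064. On log2(FPKM + 1): Tek -0.87 and Clec14a -0.059. On log2(FPKM + 0.1): Tek -1.43 and Clec14a -0.11. Series as a term: Tek -1.36. Leaving out single tumours gave ranges of Tek -2.80 to 0.86, Clec14a -1.12 to 1.03, Apln -0.43 to 0.55, Erg -0.45 to 0.68, Cd34 -0.98 to 0.78, Flt4 -1.30 to 0.40 and Tal1 -2.03 to 0.12. The causes were not tested. Relative to Cdh5, Tie1 and Esam, Icam2 turned to 0.057 from -0.35 relative to the 4-gene reference. Genes under about 3 CPM, such as Sox7, Sox17, Tal1 and Nos3, rest on few counts, with as few as 9 for Sox7 and 5 for Tal1 in single tumours.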

Other observations

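Values of neighbouring genes were looked up, after the levels were seen, for tumours in which a single endothelial gene stood far above the rest. The look-up covered Tek, Cd34, Ramp2, Sox18, Clec14a, Erg, Vwf and Apln on both sides. Only neighbours of Clec14a, on one side, and of Tek are given here. In sgKdm6a replicate 6, with 102 CPM of Clec14a, the nearest tested genes on one side of it on chromosome 12 were also high. Sstr1, a somatostatin receptor gene, was at 55.0 CPM, against 0.103 to 6.95 CPM in the other 12 tumours. Foxa1, a forkhead factor gene of endoderm, was at 607 CPM against 93.2 to 465 CPM, and Ttc6 at 127 CPM against 14.2 to 72.6 CPM. In sgKdm6a replicate 1, with 188 CPM of Tek, the flanking genes Plaa and Ift74 on chromosome 4 were at 152 and 41.4 CPM, where their other tumours spanned 69.3 to 138 and 21.4 to 67.4 CPM. The sgKdm6a tumour of replicate 3, in which most endothelial genes were lowest, had 1755 CPM of summed red blood cell genes, against 54.5 to 529 CPM in the other 12 tumours. Edn3, a ligand of Ednrb, was at 197 CPM in sgKdm6a replicate 6 and at 0.741 to 34.5 CPM in sgControl replicates 1 to 5. These values were chosen after they were seen and carry no test.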
